A study of Mus musculus with 4 samples.

Results

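The genes for the pore-forming and auxiliary subunits of voltage-gated sodium and calcium channels, HCN channels and TRP channels were examined in hippocampal neurons of sleep-deprived and non-sleep-deprived mice. They were chosen by symbol alone: every protein-coding gene of the counts table whose symbol starts with Scn and a digit, Cacna, Cacnb and a digit, Hcn and a digit, or Trpa, Trpc, Trpm or Trpv and a digit. This gave 57 of the 28193 genes in the table, of which 16973 were protein coding. The symbols also bring in 2 genes that are not channel subunits, Trpc4ap, whose product binds a TRP channel, and Trpc5os, which lies on the opposite strand inside Trpc5.

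The data came from fosTRAP-seq of activated neurons of the hippocampal CA1 field, a method that sequences RNA attached to tagged ribosomes of neurons in which the Fos promoter was active during a tagging window. The study's methods describe male C57BL/6J mice, 3 to 5 months old, whose dorsal CA1 had received 2 viruses, AAV8 c-Fos-ERT2-Cre-ERT2-PEST and AAV9 EF1a-DIO-HA-mRpl22-IRES-eYFP, so that Cre under the Fos promoter switched on an HA-tagged ribosomal protein in the presence of 4-hydroxytamoxifen. The sample labels give the genotype as cFos-Cre:Ribotag and the tissue as dorsal hippocampus. All mice of both groups received 4-hydroxytamoxifen and were sleep deprived for 5 h by gentle handling on day 0, so both groups carry neurons tagged by sleep deprivation. On day 7 the SD group was sleep deprived for 5 h again from lights on, and the NSD group was left undisturbed. The CA1 tissue of 5 mice was pooled for each library and there were 2 libraries per group, so each spread given here is between pools. Which cells were tagged depended on virus uptake and on Fos promoter activity on day 0, not on a cell-type promoter.

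Sodium channels open when the membrane depolarizes and carry the rising phase of the action potential, with an alpha subunit that forms the pore and beta subunits that set gating and placement. Calcium channels turn depolarization into calcium entry, for transmitter release, dendritic signals and signalling to the nucleus, and their pore is carried to the membrane and tuned by beta and alpha2delta subunits. HCN channels open on hyperpolarization and, in CA1 pyramidal neurons, shape how distal dendritic inputs sum, and TRP channels form a broad class of cation channels gated by lipids, temperature, calcium or oxidants.

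The library totals were 162943863 and 153511705 estimated counts for NSD 1 and NSD 2 and 181914848 and 195910235 for SD 1 and SD 2. At that depth 53 of the 57 members had more than 5 counts in every library and were tested, among 22338 genes in all. Levels are given as CPM, counts per 1000000 of the library after TMM scaling, and a log2 fold change is SD over NSD. The CA1 markers were present, summing to 1351 and 1517 CPM in NSD and 1282 and 1431 CPM in SD over 6 genes, with Wfs1 at 390.0, 441, 279 and 355 CPM and Fibcd1 at 185, 217, 150.4 and 166 CPM in NSD 1, NSD 2, SD 1 and SD 2. Exons of Wfs1 overlap those of Ppp2r2c on the opposite strand, which held 179.7% of the Wfs1 count, so its values are uncertain. The 6 genes were divided in direction, 3 above and 3 below 0. Without the block edgeR called none of them, with it 1 higher and 3 lower, and DESeq2 called 0 higher and 3 lower. Among those below 0 were Wfs1 with a log2 fold change of -0.39 (in edgeR, adjusted p = 0.124, or 0.00246 with the replicate block) and Fibcd1 with -0.35 (edgeR adjusted p = 0.0909, or 0.00286 with the block). Above 0 were Ndst4 at 0.26 (edgeR adjusted p = 0.332, or 0.0136 with the block), Mpped1 at 0.15 and Pou3f1 at 0.08. Endothelial markers were low and lower still in SD, with a summed level of 46.2, 63.9, 37.4 and 23.9 CPM and all 8 of 8 below 0 in log2 fold change. Of these 8, edgeR called 0 lower without the replicate block and 6 with it, and DESeq2 called 4. Choroid plexus markers varied most, with a summed level of 61.7 and 133.9 CPM in NSD against 64.3 and 40.3 CPM in SD, and Folr1 was below 1 CPM in every library. Glial markers were abundant. Oligodendrocyte markers summed to 1869 and 1547 CPM in NSD and 1804 and 1717 CPM in SD over 7 genes. Most of this was Mbp, at 1073 and 880 CPM in NSD and 1016 and 919 CPM in SD. Astrocyte markers summed to 689 and 615 CPM in NSD and 689 and 656 CPM in SD. GABAergic interneuron markers summed to 883 and 841 CPM in NSD and 867 and 775 CPM in SD, with 3 of 8 above 0 in log2 fold change and 5 below. Their part in the channel results was not tested, and in bulk libraries fewer cells of a type and less RNA per cell cannot be told apart.

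In several subfamilies a few members made up most of the RNA in these libraries. Levels between genes are compared here only per kilobase of exon, as a mean of the 4 libraries. Scn8a, the sodium channel alpha subunit of the axon initial segment and nodes, was highest of its subfamily at 59.6 CPM per kb and Scn2a, its partner in excitatory axons, followed at 44.3, then Scn1a, known from fast-spiking interneurons, at 22.2. These 3 genes made up 95.9% to 96.6% of the per-kilobase sum of all sodium channel alpha subunits in every library. The beta subunit Scn2b was higher than any alpha subunit, at 122.4 CPM per kb.

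**Figure D1:**
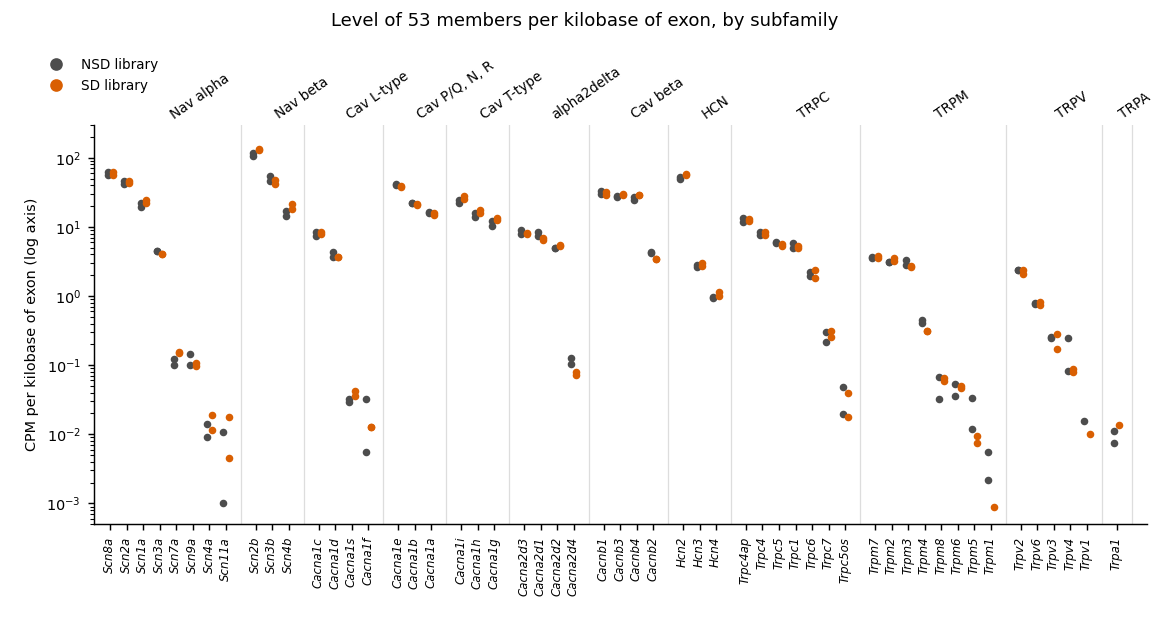
Level of 53 members in CPM per kilobase of exon on a log axis, grouped by subfamily and ordered within it, with a point for each NSD library in grey and each SD library in orange (values of 0 cannot be drawn). Scn2b is the highest member at a mean of 122.4 CPM per kb, and Cacnb1, Cacnb3 and Cacnb4, at 31.0, 28.4 and 27.3, lie close enough for their points to overlap.

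Among the calcium channels the R-type pore Cacna1e led at 39.7 CPM per kb, above the T-type Cacna1i at 24.9, the N-type Cacna1b at 21.7, and the T-type Cacna1h and P/Q-type Cacna1a at 16.0 and 15.8. The L-type pores Cacna1c and Cacna1d were at 8.04 and 3.83 CPM per kb, and the L-type pores of retina and skeletal muscle, Cacna1f and Cacna1s, were below 0.04. Of the beta subunits, Cacnb1, Cacnb3 and Cacnb4 were close to each other at 31.0, 28.4 and 27.3 CPM per kb and Cacnb2 was far lower at 3.82. Hcn2 was at 54.5 CPM per kb, far above Hcn3 and Hcn4 at 2.78 and 1.01. No TRP channel gene exceeded 8.06 CPM per kb, the level of Trpc4, and Trpm7 at 3.63 and Trpv2 at 2.30 were the highest of the TRPM and TRPV groups. The highest member of each of the 12 subfamilies was the same when the longest transcript replaced the exon total as the length, but the order below it was not: on that length Cacna1a was at 31.7 CPM per kb, above Cacna1i at 25.1 and Cacna1b at 22.1.

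Few of these genes changed with the day 7 sleep deprivation, and the changes that were called were small. Without a batch term, edgeR called 0 members higher and 1 lower in SD (fold change above 1.2 at an adjusted p under 0.05), the calcium channel beta subunit Cacnb2. The background for these calls was 0.770% of all genes tested called higher and 2.33% called lower, and among protein-coding genes 0.952% called higher and 0.540% called lower. At an unadjusted p under 0.05 there were 8 of the 53 members (15.1%), where 19.1% of all genes tested and 14.6% of protein-coding genes had one. In the labels each replicate number is also a batch number, and with this replicate block edgeR called 2 members higher, Scn4b among them, and 2 lower, Cacnb2 and Trpm4. The background rose with the block as well, to 2.99% higher and 8.47% lower of all genes, and to 3.77% higher and 3.29% lower of protein-coding genes. DESeq2 called 2 members higher, again with Scn4b among them, and 1 lower, Cacnb2, against 2.99% and 5.79% of all genes. With 2 or fewer of 53 members called in each direction, nothing in these counts sets the channel genes apart from other genes.

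**Figure D2:**
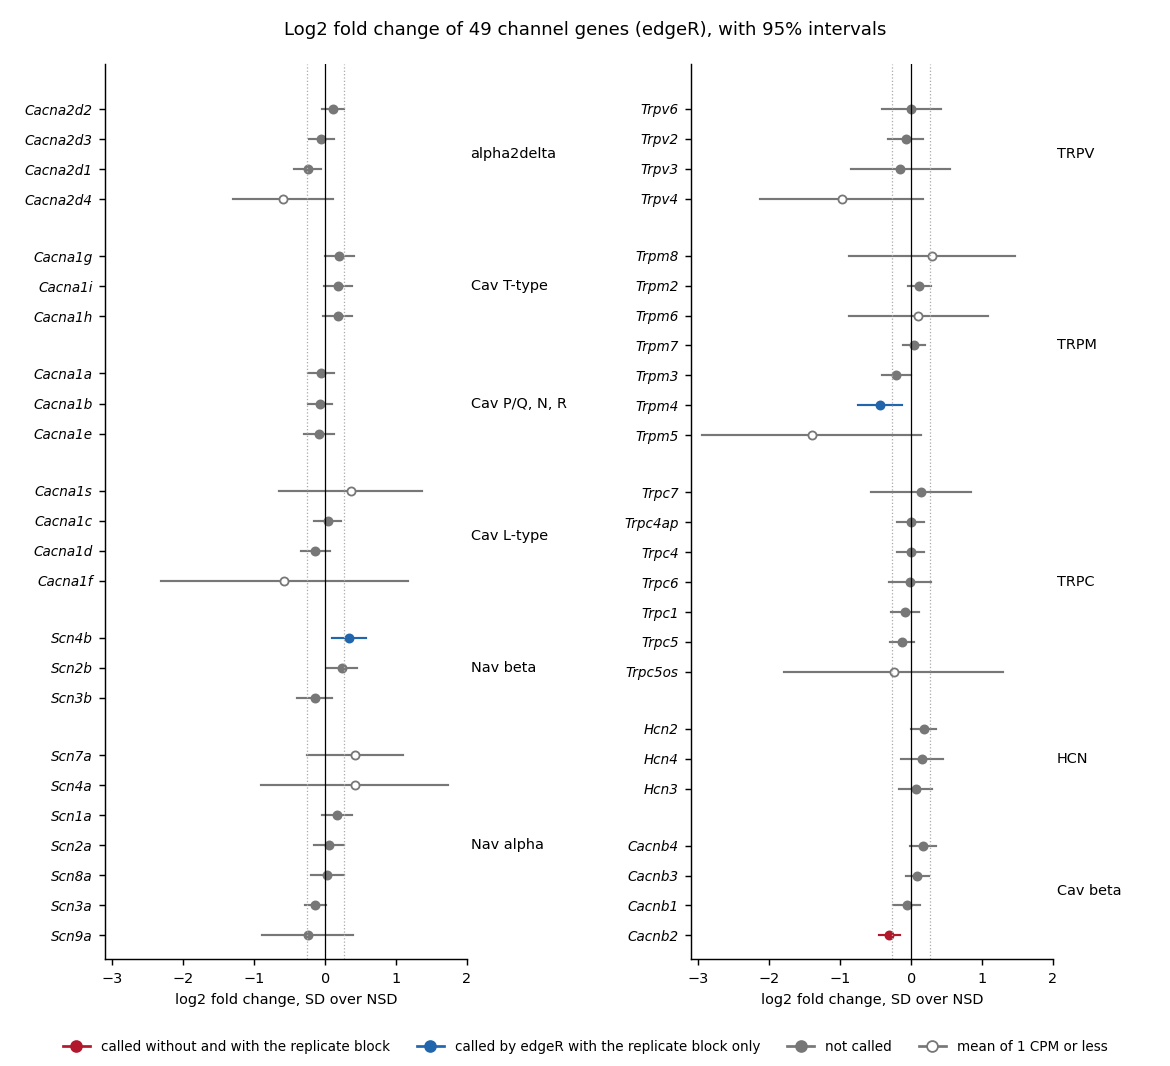
Log2 fold change of 49 tested members (SD over NSD, edgeR without the block) with its 95% interval, grouped by subfamily, where dotted lines mark a fold change of 1.2 and open points a mean of 1 CPM or less. Cacnb2 at -0.31 is the member called both without and with the replicate block, and on all 4 libraries edgeR called Scn4b and Trpm4 with the block but not without it.

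The 53 log2 fold changes were spread around 0. There were 28 above and 25 below, with a median of 0.02 beside 0.018 for protein-coding genes. For 17 members the SD libraries were both higher than either NSD library, for 10 both lower, and for 26 the groups overlapped, where among protein-coding genes 26.5% were higher in this way and 20.0% lower. By subfamily, the T-type calcium channel pores all had log2 fold changes above 0, and the P/Q-, N- and R-type pores were all below 0, which is a description of 3 and 3 genes.

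Of the HCN channels, Hcn2, which responds strongly to cAMP, was at 189 and 174 CPM in NSD and 202 and 209 CPM in SD, so the groups did not overlap. Its log2 fold change was 0.18 ± 0.077 (SE, here and below; edgeR adjusted p = 0.259, or 0.1004 with the block). Hcn4, the slow pacemaker form, was at 6.26 and 6.57 CPM in NSD and 6.62 and 7.64 CPM in SD, a log2 fold change of 0.15 that was not called by any fit. With 1 library left out the log2 fold change of Hcn4 ran from 0.057 to 0.251. Hcn3 was at 14.1 and 12.8 CPM in NSD and 14.9 and 13.3 CPM in SD, so its groups overlapped. Its log2 fold change was 0.07, and the sign turned when SD 1 was left out (-0.02).

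The sodium channel beta subunits held a member called higher. Scn4b, whose subunit is linked to resurgent sodium current, was at 72.5 and 87.5 CPM in NSD and 93.7 and 108.2 CPM in SD. Both SD libraries were above both NSD libraries, and each batch gave a similar step, a log2 ratio of 0.37 in batch 1 and 0.31 in batch 2. The log2 fold change was 0.34 ± 0.10 (edgeR adjusted p = 0.119, 0.00118 with the replicate block, DESeq2 adjusted p = 0.0180). In edgeR it was called when NSD 2 or SD 1 was left out (log2 fold changes of 0.48 and 0.44) and not when NSD 1 or SD 2 was (both 0.24). Scn2b, the most abundant beta subunit, was at 499.1 and 548 CPM in NSD and 604 and 629 CPM in SD, again without overlap. Its log2 fold change of 0.24 ± 0.091 stayed under the fold threshold, with an edgeR adjusted p of 0.202 that became 0.0421 with the block and a DESeq2 adjusted p of 0.0125.

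Scn3b differed from these in sign, with 326 and 387 CPM in NSD and 300.4 and 342 CPM in SD, and its groups overlapped. Within each batch its log2 ratio was below 0 (-0.12 and -0.18), and no fit called it. Its log2 fold change was -0.15, and ran from -0.237 to -0.023 with 1 library left out.

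**Figure D3:**
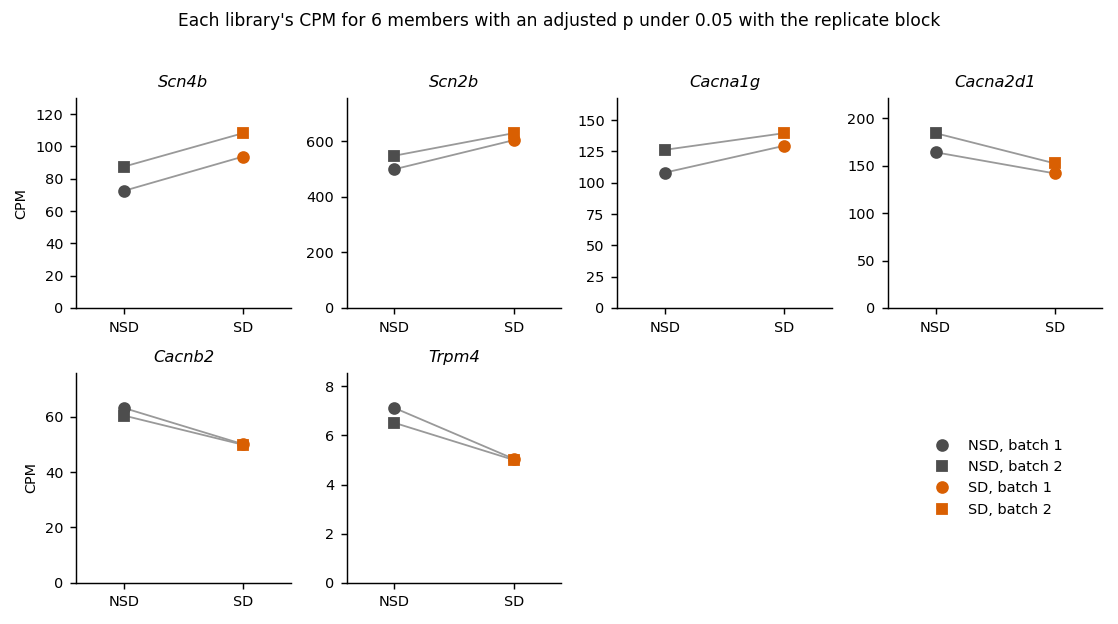
CPM in each library of 6 members with an edgeR adjusted p under 0.05 with the replicate block, NSD in grey and SD in orange, with a line joining the libraries of a batch and each vertical axis starting at 0. In every panel both SD libraries lie on the same side of both NSD libraries, from Scn4b with 93.7 and 108.2 CPM in SD to Trpm4 with 5.05 and 5.003 CPM.

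Scn2b and Scn4b lie next to each other on chromosome 9, at chr9:45029080-45041368 and chr9:45049693-45065450 of GRCm39, on the same strand and 8.3 kb apart. On chromosome 2, Scn3a and Scn2a, 53.1 kb apart, had log2 fold changes of -0.14 and 0.05, and Scn1a, Scn9a and Scn7a, neighbours in that order, had 0.17, -0.25 and 0.42. The 250 bases before the starts of Scn2b and Scn4b are given from RefSeq on GRCm38.p6, an older build than that of the counts, to show how unlike the promoters of these neighbours are. Capitals would mark a CRE (TGACGTCA) or its half-site (TGACG), an AP-1 site (TGANTCA) or a TATA box (TATAAA) on either strand, and neither window holds one.
Scn2b, chr9:45117626-45117875: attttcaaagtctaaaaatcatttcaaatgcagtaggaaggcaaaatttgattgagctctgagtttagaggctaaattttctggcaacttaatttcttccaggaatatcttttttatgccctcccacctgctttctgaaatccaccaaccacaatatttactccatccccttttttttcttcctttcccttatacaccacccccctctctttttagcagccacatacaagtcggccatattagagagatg
Scn4b, chr9:45138374-45138623: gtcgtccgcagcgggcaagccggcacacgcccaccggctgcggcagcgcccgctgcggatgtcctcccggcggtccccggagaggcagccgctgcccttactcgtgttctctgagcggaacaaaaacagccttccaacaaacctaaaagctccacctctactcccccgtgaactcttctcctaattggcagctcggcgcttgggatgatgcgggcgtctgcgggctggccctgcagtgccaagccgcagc
The Scn2b window is 38.4% G and C and the Scn4b window 66.0%, where the median of all promoters in the table was 52.4%.

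Of the sodium channel alpha subunits, none of the 8 tested was called by any of these fits. The 3 abundant pores showed small differences. Scn8a was at 892 and 972 CPM in NSD and 905 and 996 CPM in SD, and Scn2a at 542 and 592 CPM in NSD and 567 and 606 CPM in SD, so the groups overlapped for both. The 95% interval of the log2 fold change was -0.21 to 0.26 for Scn8a and -0.16 to 0.26 for Scn2a, within the 1.2-fold threshold on either side. Scn1a was at 226 and 258 CPM in NSD and 259 and 287 CPM in SD, which did not overlap but touched at NSD 2 and SD 1, with a log2 fold change of 0.17 (in edgeR, adjusted p = 0.380).

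Scn3a, the alpha subunit of the developing brain, was at 59.2 and 60.5 CPM in NSD and 55.0 and 53.5 CPM in SD, a log2 fold change of -0.14 that was not called (edgeR adjusted p = 0.279). Scn7a, a sodium-sensing relative, had the highest log2 fold change of the tested members of the subfamily at 0.42, with 0.760 and 0.923 CPM in NSD and 1.13 and 1.12 CPM in SD (edgeR adjusted p = 0.515). Scn9a and Scn4a, known from sensory neurons and skeletal muscle, were at or below 1.82 CPM in every library, with log2 fold changes of -0.25 and 0.42 that were not called. With 1 library left out that of Scn4a ran from 0.014 to 0.758. The opposite-strand gene Gm13629, which has exon bases in common with Scn9a, held 178.8% of the Scn9a count. Whether the counting used the strand of the reads is not given in the sources used here, so the value of Scn9a is uncertain.

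Of the calcium channel pores the T-type genes had log2 fold changes alike in direction and size. These channels open near rest and give low-threshold calcium spikes and bursts. Cacna1g was at 108.1 and 126 CPM in NSD and 129.5 and 139.6 CPM in SD, with a log2 fold change of 0.20 ± 0.089 (in edgeR, adjusted p = 0.272, or 0.0375 with the replicate block, which left it uncalled because the fold change was under 1.2). Cacna1h was at 155 and 174 CPM in NSD and 177 and 195 CPM in SD, a log2 fold change of 0.18 ± 0.088. Cacna1i was at 221 and 240.2 CPM in NSD and 249 and 273 CPM in SD, a log2 fold change of 0.18 ± 0.085. None of the 3 was called by any fit, though for each of them both SD libraries were above both NSD libraries, and SD 1 was close to NSD 2. Their summed level was 483 and 541 CPM in NSD and 556 and 608 CPM in SD, a ratio of 1.14.

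The P/Q-, N- and R-type pores were nearly level between groups. The R-type Cacna1e, the most abundant, was at 1046 and 1053 CPM in NSD and 981 and 991 CPM in SD, so both SD libraries were lower, with a log2 fold change of -0.09 ± 0.092. The N-type Cacna1b was at 225 and 220.2 CPM in NSD and 207 and 216 CPM in SD, a log2 fold change of -0.07. The P/Q-type Cacna1a was at 305 and 312 CPM in NSD and 288 and 306 CPM in SD, and its groups overlapped. No fit called any of these 3, and their adjusted p in edgeR lay between 0.684 and 0.779.

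The L-type pores, which link calcium entry at the soma and dendrites to transcription, showed no call either. Cacna1c was at 189 and 167 CPM in NSD and 186 and 178 CPM in SD, and both SD values lay between the NSD values. Cacna1d was at 66.6 and 55.6 CPM in NSD and 55.7 and 55.2 CPM in SD, where NSD 1 alone stood above the other 3 libraries. Cacna1f and Cacna1s were at or below 0.344 CPM in every library, and their log2 fold changes of -0.58 and 0.36 had intervals from -2.32 to 1.16 and from -0.65 to 1.37. Gm37759 on the opposite strand of Cacna1s, with exon bases in common, held 19.2% of the Cacna1s count.

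The beta subunits of calcium channels held the member called without the block. Cacnb2, a beta subunit also known for its part in cardiac calcium channels, was at 63.2 and 60.4 CPM in NSD and 50.1 and 49.9 CPM in SD. The libraries of each group were close to each other and the groups were well apart. The log2 fold change was -0.31 ± 0.065, with an edgeR adjusted p of 0.0480, 0.00331 with the replicate block and a DESeq2 adjusted p of 0.00788. The edgeR call without the block lies just inside the threshold: with DESeq2 size factors, no count filter, filterByExpr or only protein-coding genes the edgeR adjusted p was between 0.0568 and 0.0842, with log2 fold changes between -0.28 and -0.33. Leaving out NSD 1, SD 1 or SD 2 also ended the call, with edgeR adjusted p of 0.147, 0.0835 and 0.138 and the lone library of a group taken to vary like the others.

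No other beta subunit was called. Cacnb4, the beta subunit mutated in the lethargic mouse, was at 222 and 245 CPM in NSD and 263 and 263 CPM in SD, a log2 fold change of 0.17 that no fit called (edgeR adjusted p = 0.311). Cacnb3 was at 137 and 141 CPM in NSD and at a mean of 148 ± 3.34 CPM (SD, n = 2 libraries) under sleep deprivation, and Cacnb1 was at 174 and 190.4 CPM in NSD and 166 and 182 CPM in SD. Cacnb3 did not overlap between groups and Cacnb1 did, and neither was called. The share of Cacnb2 in the per-kilobase sum of the 4 went from 5.01% and 4.48% in NSD to 3.76% and 3.67% in SD.

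Cacnb2 spans 384.8 kb at chr2:14607899-14992719 of GRCm39 on the forward strand, and 5 loci annotated as TEC, the GENCODE class for transcripts that await experimental testing, lie inside it on its strand without sharing any exon bases. All 5 had both SD libraries below both NSD libraries, as did all 8 TEC loci inside members. This order was the usual one for the class: it held for 71.9% of the 2386 TEC loci with a count in any library and 77.8% of the 1663 tested, against 27.5% of all genes tested, so it says nothing particular to Cacnb2. The summed level of the 5 loci was 4.32 and 2.86 CPM in NSD and 1.47 and 1.13 CPM in SD, which was 6.84% and 4.73% of the Cacnb2 level in NSD and 2.93% and 2.27% in SD. Gm37006, the most abundant of them, was at 1.77 and 1.23 CPM in NSD and 0.609 and 0.460 CPM in SD, a log2 fold change of -1.49 (in edgeR, adjusted p = 0.0539, or 0.00425 with the block). A further TEC locus on the opposite strand, Gm38273, was at 1.38 and 1.06 CPM in NSD and 0.725 and 0.677 CPM in SD. The loci together were lower in SD by a larger factor than Cacnb2 itself, and whether reads from unspliced Cacnb2 RNA were counted in them was not tested.

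**Figure D4:**
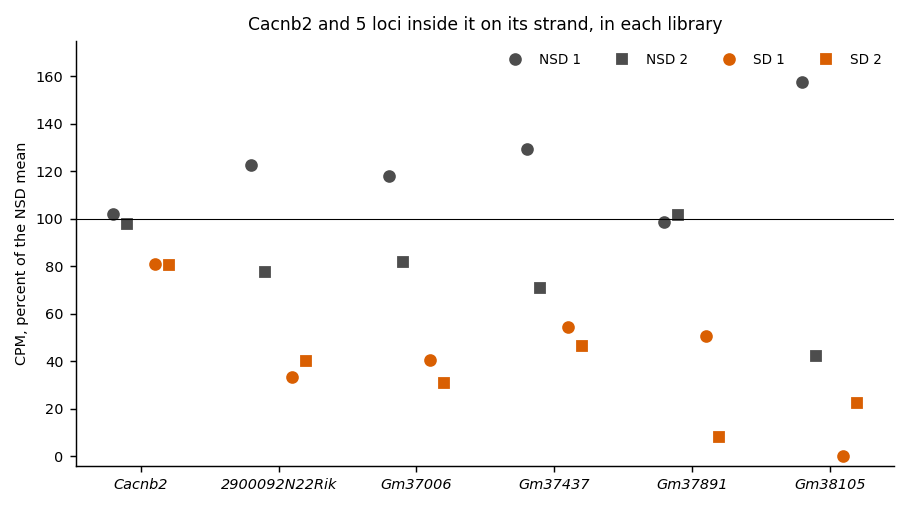
Level of Cacnb2 and of the 5 TEC loci inside it on its strand in each library, as a percent of the mean of the NSD libraries of that gene, on a linear axis. For all 6 genes both SD libraries lie below both NSD libraries, from Cacnb2 at 50.1 and 49.9 CPM in SD to Gm38105, which was at 0 CPM in SD 1.

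RefSeq gives Cacnb2 2 promoters on GRCm38.p6, shown here because the deposited count sums over both starts. Capitals mark the same motifs as above.
Cacnb2, chr2:14604056-14604305: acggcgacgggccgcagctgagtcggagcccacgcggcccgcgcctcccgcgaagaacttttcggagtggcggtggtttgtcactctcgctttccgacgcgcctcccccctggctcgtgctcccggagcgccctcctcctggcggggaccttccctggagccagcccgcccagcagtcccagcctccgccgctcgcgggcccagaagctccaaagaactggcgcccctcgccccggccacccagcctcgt
Cacnb2, chr2:14823842-14824091: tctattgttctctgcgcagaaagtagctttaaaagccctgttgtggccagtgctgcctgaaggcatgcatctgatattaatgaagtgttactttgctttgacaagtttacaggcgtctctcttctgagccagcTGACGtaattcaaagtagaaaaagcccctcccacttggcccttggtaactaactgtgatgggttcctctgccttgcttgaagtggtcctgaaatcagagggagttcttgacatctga
The first is 73.2% G and C and holds no marked motif. The second is 46.0% G and C and holds a CRE half-site that starts 117 bases before the transcript start. Of all 32851 promoters in the table, 17.8% hold a half-site and 1.55% a full CRE, 6.75% an AP-1 site and 12.4% a TATA box. The 44 members in the table have 58 promoters, of which 10 (17.2%) held a half-site, 0 a full CRE, 1 (1.72%) an AP-1 site, that of Trpv3, and 5 (8.62%) a TATA box. A match is a run of letters and not a shown binding site. Trpm4 had no promoter there.

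The alpha2delta subunits, which carry calcium channels to presynaptic terminals and include the targets of gabapentin, held 3 log2 fold changes below 0 and 1 above, none called. Cacna2d1 was at 164 and 185 CPM in NSD and 142 and 153 CPM in SD, with both SD libraries below both NSD libraries. Its log2 fold change was -0.24 ± 0.083 (edgeR adjusted p = 0.151, or 0.0177 with the replicate block), under the fold threshold. A TEC locus inside it on the same strand, Gm43490, was at 1.39 and 0.369 CPM in NSD and 0.172 and 0.137 CPM in SD. Cacna2d3 was at 79.8 and 90.04 CPM in NSD and 79.3 and 83.9 CPM in SD and overlapped, and Cacna2d2 was at 39.4 and 39.3 CPM in NSD and 43.1 and 41.8 CPM in SD, slightly higher in both SD libraries. Cacna2d4 was at or below 1.19 CPM in every library, and its exons overlap those of Lrtm2 on the opposite strand, which is far more abundant, so its log2 fold change of -0.60 is uncertain.

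Of the TRPM channels, Trpm4, which passes sodium when intracellular calcium rises, was at 7.12 and 6.51 CPM in NSD and 5.05 and 5.003 CPM in SD. Both SD libraries were below both NSD libraries and close to each other. The log2 fold change was -0.44 ± 0.13 (edgeR adjusted p = 0.113, or 0.0288 with the replicate block), and the DESeq2 adjusted p was 0.0582. Trpm4 lies on chr7:44952056-44983204 of GRCm39. Trpm2, opened by ADP-ribose and oxidants, was at 40.1 and 40.3 CPM in NSD and 41.7 and 45.5 CPM in SD, and Trpm7, a channel with a kinase domain, was at 41.1 and 40.4 CPM in NSD and 40.9 and 42.7 CPM in SD. The 95% interval of Trpm7 ran from -0.12 to 0.19 on the log2 scale, inside the 1.2-fold threshold.

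Trpm3, a steroid- and heat-gated channel that is also abundant in choroid plexus, was at 69.4 and 83.0 CPM in NSD and 66.6 and 65.4 CPM in SD. Its log2 ratio was -0.06 in batch 1 and -0.35 in batch 2, so most of the difference came from NSD 2 (log2 fold change -0.21, edgeR adjusted p = 0.253). Trpv4, an osmosensitive channel also known from choroid plexus, was at 0.489 and 1.46 CPM in NSD and 0.470 and 0.518 CPM in SD, with NSD 2 alone above the rest (log2 fold change -0.98, edgeR adjusted p = 0.347). NSD 2 was also the library with the highest choroid plexus markers, with Ttr at 14.2 and 69.8 CPM in NSD and 25.6 and 4.21 CPM in SD and Kl at 45.2 and 57.4 CPM in NSD and 35.4 and 34.9 CPM in SD. Kl was called lower (log2 fold change -0.54, edgeR adjusted p = 0.0405). The part of choroid plexus RNA in the values of Trpm3 and Trpv4 was not tested.

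The TRPC channels, which are activated downstream of phospholipase C, held no call. Of the 8 genes, 7 overlapped between groups, and the log2 fold changes ran from -0.25 for Trpc5os to 0.14 for Trpc7, both rare here. Trpc5 was the member without overlap, at 52.3 and 55.6 CPM in NSD and 47.3 and 51.2 CPM in SD (log2 fold change -0.13, edgeR adjusted p = 0.392). Trpc4, the most abundant channel gene of the group, was at 69.6 and 76.2 CPM in NSD and 68.2 and 76.8 CPM in SD, with a 95% interval from -0.19 to 0.18 on the log2 scale. Trpc1 was at 42.8 and 49.6 CPM in NSD and 41.7 and 44.9 CPM in SD. Trpc6 lay between 13.8 and 17.7 CPM and Trpc7 between 0.847 and 1.21 CPM in the 4 libraries. Trpc4ap lay between 114.1 and 129.4 CPM.

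The remaining TRP channels were rare. Trpv2 was at 10.8 and 10.7 CPM in NSD and 9.58 and 10.9 CPM in SD, and Trpv6 at 3.004 and 3.14 CPM in NSD and 2.89 and 3.27 CPM in SD. Trpv3 lay between 0.989 and 1.67 CPM, Trpm6 between 0.286 and 0.428 CPM, Trpm8 between 0.153 and 0.3197 CPM and Trpm5 between 0.0476 and 0.211 CPM. Trpm5 had the lowest log2 fold change of the tested members at -1.40, with an interval from -2.95 to 0.14 (edgeR adjusted p = 0.313). NSD 1 alone was high, and without it the log2 fold change was -0.46, against -1.95 without NSD 2. Exons of Trpm5, Trpm8, Trpv3 and Trpv6 overlap those of more abundant genes on the opposite strand (Tssc4, Hjurp, Aspa and Ephb6), so their values are uncertain.

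The 4 members that did not pass the count filter are known mainly from sensory neurons or retina. Scn11a, a sodium channel of nociceptors, had 1, 10, 19 and 5 counts in NSD 1, NSD 2, SD 1 and SD 2. Trpa1, the irritant receptor, had 8, 5, 0 and 11 counts, and Trpv1, the capsaicin receptor, had 0, 9, 0 and 7 counts. Trpm1, known from retinal bipolar cells, had 16, 6, 1 and 3 counts, with both SD libraries below both NSD libraries. A count of 0 allows up to 3 counts, or 0.0166 CPM in SD 1 and 0.0181 CPM in NSD 1, and these limits cover counting error only. In edgeR without the count filter none of the 4 was called, with adjusted p between 0.461 and 0.943.

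Most of the abundant members changed in the same direction in both batches. Of the 43 members over 1 CPM on average, 33 had the same sign of the log2 ratio in batch 1 and in batch 2, and the Pearson correlation of these ratios across the genes was 0.504. Genes are not independent replicates and the ratios share each library's preparation, so this is a description. Neither value was computed over all genes, so whether it is usual for this series is not known. Long genes were common among the members, with a median genomic span of 84.7 kb against 23.4 kb for the protein-coding genes of the table. Over the 43 members the Spearman correlation of log2 fold change with span was -0.295, and over 12992 protein-coding genes above 1 CPM it was 0.0569.

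**Figure D5:**
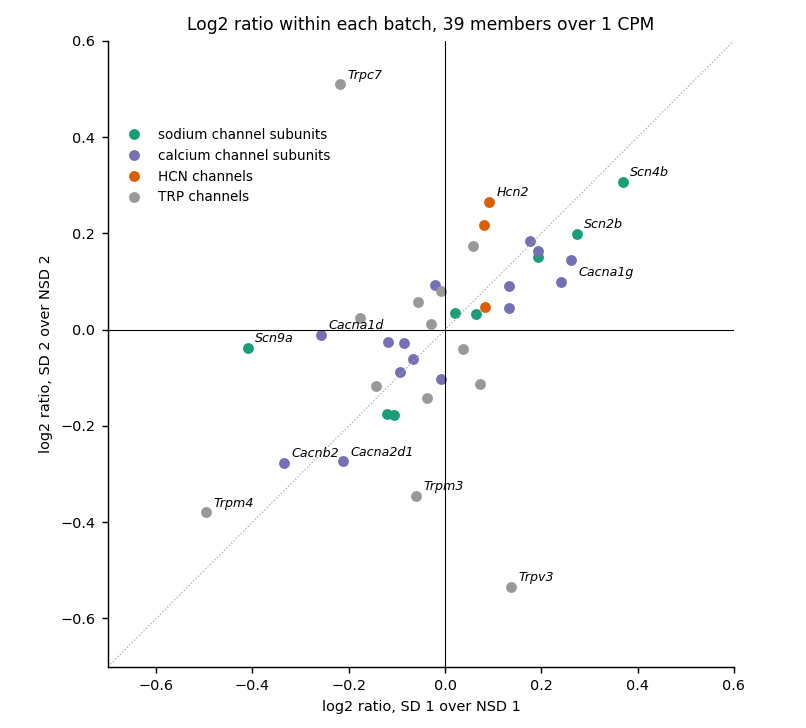
Log2 ratio of SD to NSD within batch 1 (horizontal) and within batch 2 (vertical) for 39 members over 1 CPM, coloured by channel class, with a dotted line where the ratios are equal. Scn4b lies in the upper right at 0.37 and 0.31, Cacnb2, Cacna2d1 and Trpm4 lie in the lower left, and Trpc7, Trpv3, Scn9a and Trpm3 lie far from the line.

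Genes whose products bind or regulate these channels were examined as lists of partners, of which 56 of 62 genes were tested. Without the block edgeR called 1 of them higher and 0 lower, and with the replicate block 4 higher and 0 lower, against backgrounds of 0.770% and 2.99% of all genes and 0.952% and 3.77% of protein-coding genes called higher. Called lower were 2.33% and 8.47% of all genes and 0.540% and 3.29% of protein-coding genes. At an unadjusted p under 0.05 there were 7 (12.5%, against 19.1% of all genes and 14.6% of protein-coding genes), and DESeq2 also called 4 higher and 0 lower, where it called 2.99% of all genes higher and 5.79% lower. Log2 fold changes were above 0 for 33 and below 0 for 23, with a median of 0.045.

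The 4 called partners act on calcium or sodium channels. Stac2, an adaptor that reduces the inactivation of L-type channels, was at 88.9 and 89.3 CPM in NSD and 110.9 and 117 CPM in SD, with a log2 fold change of 0.35 ± 0.066 (in edgeR, adjusted p = 0.0397, or 0.00110 with the block). Its relative Stac was at 12.3 and 15.4 CPM in NSD and 17.2 and 18.9 CPM in SD, with a log2 fold change of 0.38 ± 0.12 (in edgeR, adjusted p = 0.125, or 0.00759 with the block). Rims1, a scaffold of the presynaptic active zone that holds calcium channels near vesicles, was at 199.6 and 192 CPM in NSD and 242 and 235 CPM in SD, with a log2 fold change of 0.28 ± 0.073 (in edgeR, adjusted p = 0.0768, or 0.00939 with the block). Fgf11, of the intracellular fibroblast growth factor homologues that bind sodium channels, was at 52.0 and 62.7 CPM in NSD and 74.4 and 74.5 CPM in SD, with a log2 fold change of 0.38 ± 0.091 (in edgeR, adjusted p = 0.0648, or 0.00208 with the block). For all 4 genes the groups did not overlap, with SD higher. The edgeR call of Stac2 without the block was lost with no count filter, filterByExpr or protein-coding genes only (adjusted p of 0.0519, 0.0628 and 0.0544) and when NSD 1 or SD 2 was left out (0.0629 and 0.054), while its log2 fold change stayed between 0.33 and 0.38 in these fits.

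By list, the log2 fold changes were divided as follows, where 54.2% of protein-coding genes were above 0 and differences between the lists were not tested. Of 14 sodium channel partners 10 were above 0 and 4 below, and of 19 tested calcium channel partners 14 were above and 5 below. The sodium leak channel Nalcn and its subunits Unc79 and Unc80 were all 3 above 0, with Unc80 at 998 and 981 CPM in NSD and 1051 and 1158 CPM in SD, and none was called. Of 10 tested TRP relatives and store-operated channel genes 8 were below 0, among them Stim2 at 112.4 and 129 CPM in NSD and 104.1 and 108.9 CPM in SD and Orai2 at 88.7 and 87.9 CPM in NSD and 75.3 and 80.0 CPM in SD, neither called. Of the 6 calcium release channels of the endoplasmic reticulum 5 were below 0, with Ryr2 at 668 and 664 CPM in NSD and 598 and 632 CPM in SD, and the sixth, Itpr1, was at 1230 and 1260 CPM in NSD and 1285 and 1323 CPM in SD. Of the 4 tested HCN partners 3 were above 0, and Pex5l, which brings HCN channels to dendrites, was at 494 and 554 CPM in NSD and 537 and 591 CPM in SD, and its groups overlapped.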

How the data were processed

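RNA attached to HA-tagged ribosomes was sequenced from 4 libraries, 2 per group, made with a stranded total RNA kit after ribosomal RNA removal. The authors trimmed and aligned the reads with STAR in Partek Flow to mm39 and deposited estimated counts per gene from an expectation-maximization model with Ensembl annotation, without normalization. Such a model divides reads between overlapping genes, and 55.6% of genes had a value that was not whole. Whether it used strand is not given in the sources used here.

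The estimated counts were rounded. The 22338 genes whose count exceeded 5 in each library were tested in R 4.3.3 with edgeR 4.0.16, using TMM scaling (factors 0.965 to 1.02), the quasi-likelihood method with SD or NSD as the sole factor (common dispersion 0.0296, prior degrees of freedom 6.38) and Benjamini-Hochberg adjustment over all genes tested. Calls were made at a fold change above 1.2 with an adjusted p under 0.05, thresholds taken from the study, which used DESeq2 after a similar filter. P-values measure the spread between pools of mice. Log2 ratios of single batches came from CPM.

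The batch in the labels equals the replicate number and so pairs the NSD and SD libraries, and across genes the within-group deviations of libraries with the same number correlated at 0.178. The replicate block was entered as an alternative, beside DESeq2 1.42.0, its size factors in edgeR, no count filter, filterByExpr (24323 genes) and protein-coding genes only. Others were no fold threshold, each library left out and Trpc4ap left out. Subfamily summaries were also taken over members above 1 CPM or without the member with the highest CPM. DESeq2 with the block and leaving out Trpc5os as well were added after seeing the data. The fits were tested on simulated counts.

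Exon lengths and overlaps came from GENCODE on GRCm39, a later release than that used for counting. Promoters came from the RefSeq table on GRCm38.p6, where 44 of 57 members matched. Members named were those called by any of edgeR, edgeR with the block or DESeq2, the highest per kilobase and the highest and lowest log2 fold change of each subfamily, those below the count filter, and partners called by edgeR without or with the block. Results of some members and markers are not reported here, in the text or the plots, though they stay in the counts and summaries. The other members were given as well, and the markers, neighbours, TEC loci and uncalled partners were chosen after their values were seen. The members and lists were chosen with earlier results of these data known.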

Additional observations from a re-analysis of the deposited data

How the results depend on the processing

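The number of members called depended on the fit, while the direction of the called members did not in any of the alternatives run. Against 0 higher and 1 lower, the replicate block gave 2 and 2, DESeq2 2 higher and DESeq2 with the block 2 higher (1 lower in both), while DESeq2 size factors in edgeR, no count filter, filterByExpr and protein-coding genes only each gave 0 lower. The blocked fit pairs the libraries by batch and changed the call of Scn4b and Trpm4 among the members named here and of Fgf11, Stac and Rims1 among partners, and of no other member or partner named here. It also brought calls among the markers, 3 lower and 1 higher of the 6 CA1 markers and 6 lower of the 8 endothelial markers among them, and for the TEC loci Gm37006, Gm43490, 2900092N22Rik and Gm37891. Leaving out 1 library gave 0 to 2 members higher and 0 to 1 lower. Over all genes, the counts of 172 higher and 520 lower became 668 and 1891 with the block, 669 and 1294 with DESeq2, 724 and 1427 with DESeq2 and the block, 50 and 80 without the filter, 1 and 0 with filterByExpr and 51 and 39 with protein-coding genes only. They were between 124 and 308 higher and between 78 (without NSD 1) and 1955 (without SD 1) lower when 1 library was left out, and 292 and 308 higher without SD 1 and SD 2. Partners called higher numbered 4 with the block, with DESeq2 and with both, 0 without the filter, with filterByExpr and with protein-coding genes only, and 0 to 4 when 1 library was left out.

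In edgeR without the block the median log2 fold change was 0.11 for sodium channel alpha subunits and -0.151 for alpha2delta subunits. It was 0.036 for TRPM, -0.054 for L-type pores and -0.112 for TRPV. The median of the sodium channel alpha subunits was 0.20 without the filter, 0.18 with filterByExpr and 0.038 over members above 1 CPM. It was 0.06 to 0.191 when 1 library was left out. The alpha2delta median was -0.057 over members above 1 CPM and -0.204 to -0.063 with 1 library left out. The TRPM median was -0.057 without the filter, -0.086 above 1 CPM and -0.142 to 0.078 with 1 library left out, where the L-type median ran from -0.16 to 0.24 and the TRPV median from -0.28 to -0.032. The ratio of summed levels was also taken without the member with the highest CPM, with no correction for length. This left out Cacna1c, Cacna2d1, Cacnb4 and Trpm3, of which only Cacna1c was also the highest per kilobase. The ratio went from 0.994 to 0.908 for L-type pores and from 0.908 to 0.996 for alpha2delta. It went from 1.03 to 0.971 for calcium channel beta subunits and from 0.954 to 1.03 for TRPM, so the last 2 crossed 1. With DESeq2 size factors it went from 0.945 to 0.96 for P/Q-, N- and R-type pores. The cause of these changes was not tested.

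Signs turned for these members, some of them far from 0 (Scn9a at -0.25, Cacna1f at -0.58 and Trpv4 at -0.98). Trpc4ap was at 0.019 with DESeq2 and with DESeq2 size factors, 0.02 with DESeq2 and the block, 0.025 without the filter and 0.002 with filterByExpr, and Trpv6 at -0.018 with protein-coding genes only. Trpc4 and Trpc6 also turned to above 0 with DESeq2 (0.015 and 0.01), DESeq2 and the block, DESeq2 size factors and no filter. With 1 library left out the log2 fold change ran from -0.063 to 0.09 for Trpc4ap, -0.078 to 0.091 for Trpv6, -0.031 to 0.095 for Scn8a, -0.49 to 0.077 for Scn9a, -0.054 to 0.156 for Cacna1c, -1.34 to 1.21 for Cacna1f, -0.112 to 0.032 for Cacna2d3, -0.12 to 0.004 for Cacnb1, -0.022 to 0.161 for Hcn3, -0.95 to 0.59 for Trpc5os, -0.073 to 0.408 for Trpc7, -0.14 to 0.95 for Trpm8, -0.157 to 0.015 for Trpv2, -1.536 to 0.017 for Trpv4, -0.265 to 0.024 for Cacna1d, -0.165 to 0.018 for Trpc1, -0.084 to 0.075 for Trpc4, -0.204 to 0.169 for Trpc6, -0.158 to 0.45 for Trpm6 and -0.575 to 0.188 for Trpv3.

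With 2 libraries per group, counting error is small for abundant members and the spread between pools sets the precision. For tested members under 1 CPM the 95% intervals of the log2 fold change are wide, as for Scn7a (-0.26 to 1.09).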
